A study of Rattus norvegicus with 6 samples.

Results

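The potassium channel gene family was examined in lumbar spinal cord after intrathecal lidocaine. Its members were taken by symbol alone, as the genes that the array annotation names singly with a symbol starting with Kcn and a further letter. This gave 84 genes of the 20529 with 1 symbol, in 20 subfamilies. The pattern matched 86 symbols, of which Kcne1l is an older name of Kcne5 and 1 other was set aside by the rule. Kcnrg shares its cluster of probes with another gene and was not analysed here. RNA came from 6 Sprague-Dawley rats, each on its own Affymetrix array. The lidocaine rats (3) received 20 µL of a 10% solution into the fluid space around the cord, and the control rats (3) were blank controls that received nothing, so drug and injection cannot be told apart. Segments L2 to L6 were removed on day 4 after the behavioural tests. The labels give neither age nor sex.

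Potassium channels let potassium leave or enter a cell down its gradient and so set the resting potential, end the action potential and limit repetitive firing. Pore subunits opened by voltage assemble with auxiliary subunits that sit inside the cell or in the membrane, and with silent subunits that form no channel of their own. Inward rectifiers and two-pore-domain channels carry resting current, and other pores open with calcium or sodium inside the cell. In the cord these genes are known from neurons and their axons, and some from astrocytes, microglia and vessel walls.

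The promoters of 4 members are shown to give the sequence context of 3 genes that fell and 1 that rose. Kcnh7 had the largest fall among members with a single promoter entry, Kcnma1 had the most matches to the motifs searched among those that fell, Kcnj16 is a gene of astrocytes, and Kcne4 was higher after lidocaine. Each sequence is the 250 bases before the gene's start, 5′ to 3′ on the gene's strand, from RefSeq on GRCr8. The capitals mark matches on either strand to 4 motifs. These are a loose AP-1 pattern (TGANTCA, with any base at N), a cyclic AMP response element (TGACGTCA), a GC box (GGGCGG) and a PU.1 site (GAGGAAGT).
Kcnh7 promoter: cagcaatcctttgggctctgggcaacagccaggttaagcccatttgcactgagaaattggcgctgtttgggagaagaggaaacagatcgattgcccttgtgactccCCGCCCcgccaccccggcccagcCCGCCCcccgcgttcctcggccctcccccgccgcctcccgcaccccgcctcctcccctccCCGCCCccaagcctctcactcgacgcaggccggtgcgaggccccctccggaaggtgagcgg
Kcnma1 promoter: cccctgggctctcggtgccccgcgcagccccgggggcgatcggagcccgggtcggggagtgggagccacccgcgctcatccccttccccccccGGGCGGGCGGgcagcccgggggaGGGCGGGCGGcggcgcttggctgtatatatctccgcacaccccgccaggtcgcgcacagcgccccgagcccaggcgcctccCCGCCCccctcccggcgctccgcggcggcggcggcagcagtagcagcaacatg
Kcnj16 promoter: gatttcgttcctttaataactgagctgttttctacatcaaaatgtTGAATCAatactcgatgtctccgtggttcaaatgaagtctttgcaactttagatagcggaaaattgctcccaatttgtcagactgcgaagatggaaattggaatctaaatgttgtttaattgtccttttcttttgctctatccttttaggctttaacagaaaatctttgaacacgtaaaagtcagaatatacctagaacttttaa
Kcne4 promoter: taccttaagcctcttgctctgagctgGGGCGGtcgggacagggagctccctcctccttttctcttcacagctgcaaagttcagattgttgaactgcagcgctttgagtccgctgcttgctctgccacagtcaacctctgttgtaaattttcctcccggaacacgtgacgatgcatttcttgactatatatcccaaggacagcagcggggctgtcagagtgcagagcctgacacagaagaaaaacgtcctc
The stretches lie at chr3:68230672-68230921 on the minus strand and at chr15:351675-351924, chr10:96517074-96517323 and chr9:87695798-87696047 on the plus strand. The capitals in Kcnh7 are 3 GC boxes that begin 144, 121 and 61 bases before the start. Kcnma1 held 5 GC boxes, of which 2 pairs overlap, and Kcne4 held 1. The match in Kcnj16 reads TGAATCA, fits only the loose AP-1 pattern, and begins 205 bases before the start. A single promoter entry was found for 53 of the 84 members, and only these members were searched. The set of all 33469 promoters was not limited in this way and includes genes with several entries. A GC box was in 13 of 22 promoters of members that fell (59.1%), in 12 of 29 of members that did not pass (41.4%) and in 30.5% of all 33469 promoters. Median GC content was 65.2% for members that fell, 59.6% for those that did not pass and 51.2% for all promoters. The loose AP-1 pattern was in 1 of the 22 and a PU.1 site in 1 of the 22, against 6.34% and 2.04% of all promoters. None of the 53 members searched held the cyclic AMP element, which 1.59% of all promoters held. These are descriptions of letters in a window.

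The comparison asks which potassium channel genes differed in the cord 4 days after lidocaine from the untreated cord. Of the 84 members, 33 fell, 4 rose and 47 did not pass (limma, Benjamini-Hochberg adjusted p under 0.05 over all genes). Calls in either direction thus came to 44.0% of members against 23.7% of all genes. The falls made up 39.3% of members against 14.0% of all 20529 genes, and the rises 4.76% against 9.70%. The median log2 change was -0.15 over the members and -0.01 over all genes. All 3 lidocaine values lay below all 3 control values in 39 members (46.4%, against 24.6% of all genes) and above them in 6 (7.14%, against 15.9%). Falls of at least 1.5-fold that passed were found in 13 members, or 15.5%, against 1.90% of all genes, and no rise reached that size. Without control rat 2 the members called lower were 20, or 23.8% against 6.54% of all genes in the same fit. Without control rat 3 they were 21, or 25.0% against 7.83%. The rises were 2 without control rat 3, without lidocaine rat 2 or with the rats blocked by number. Rises over all 20529 genes were 1299, 1551 and 1737 in these fits, against 1992 in the main fit. In bulk tissue, fewer cells of a type and less RNA per cell cannot be told apart.

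**Figure D1:**
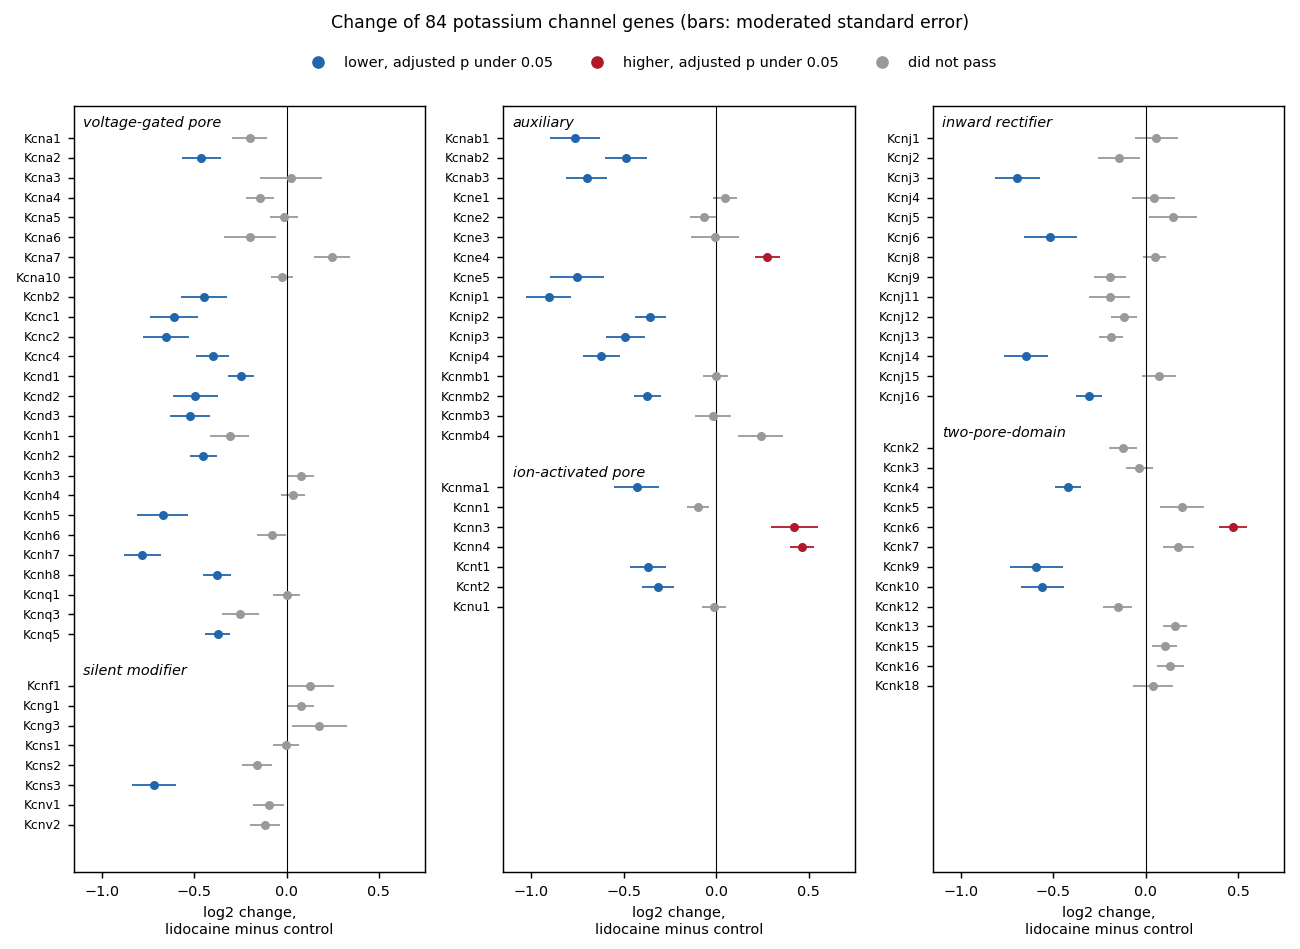
Log2 change (lidocaine minus control) of each of the 84 members, by role, with the moderated standard error as bars and 3 rats per group. The 33 blue points passed as lower and the 4 red points as higher, and the grey points did not pass.

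The calls are given next by signal level. Members whose mean over the 6 arrays was at or above 5.94, the 95th percentile of the negative control probes averaged over arrays, numbered 23. Of these 18 fell (78.3%) and 1 rose (4.35%), while 31.1% of all genes at that level fell and 11.8% rose. Of the 61 dimmer members 15 fell (24.6%) and 3 rose (4.92%), against 8.50% and 9.01% of the dimmer genes. Member means ran from 1.41 for Kcnj13 to 9.02 for Kcna1, with a median of 4.82. For 7 members the control mean lay below the median of the negative controls, and none of these passed. The dimmer members, Kcnk6, Kcnn4 and Kcne4 among them, lie in a range that negative controls also reach, and that percentile was itself higher after lidocaine (5.99 to 6.06) than in the controls (5.79 to 5.87). The part of this in the rises was not tested.

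**Figure D2:**
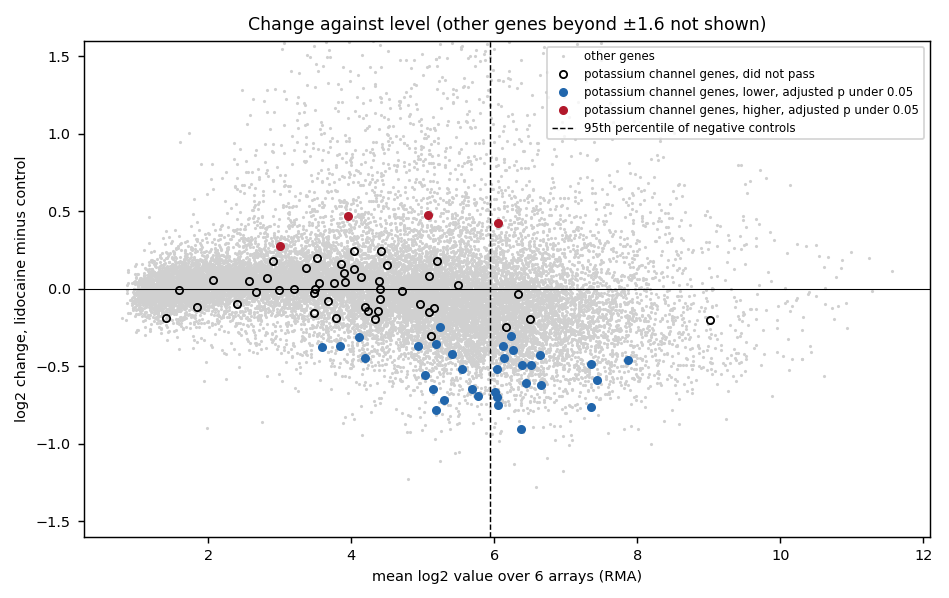
Log2 change (lidocaine minus control) against mean log2 value over the 6 arrays for all genes (grey) and for the members (open, did not pass; blue, lower; red, higher). To the right of the dashed line, at 5.94, 18 of the 23 members are blue.

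Among the voltage-gated pore subunits 13 of 26 fell, 0 rose and 13 did not pass, with a median log2 change of -0.28. Each count by role or subfamily, here and below, stands beside 14.0% of all genes that fell and 9.70% that rose. These shares were 31.1% and 11.8% among genes at or above 5.94, and 8.50% and 9.01% among dimmer genes. All 3 measured Kcnc genes fell. Of these, Kcnc1 and Kcnc2 encode fast delayed rectifiers of rapidly firing neurons. Kcnc2 was at 5.95, 6.21 and 5.89 in control rats 1 to 3 and 5.51, 5.46 and 5.13 in lidocaine rats 1 to 3. It fell from 6.02 ± 0.17 to 5.36 ± 0.21 (log2, SD, n = 3 per group), 1.57-fold lower with adjusted p = 0.00916. Kcnc1 was at 6.69, 6.85 and 6.71 in the controls and 6.37, 6.20 and 5.85 after lidocaine, a fall of 1.52-fold (adjusted p = 0.0131) that was lost without control rat 2 (adjusted p = 0.0553). In both genes the lidocaine values lay below every control value and rat 3 was the lowest. Kcnc4 was 1.32-fold lower (adjusted p = 0.0161), and did not pass when control rat 2 or 3 was left out.

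The A-type channel genes Kcnd1, Kcnd2 and Kcnd3, whose fast inactivating current delays the first spike, all fell. Kcnd3 was at 6.08, 6.54 and 6.29 in the controls and 5.75, 5.78 and 5.81 after lidocaine, 1.44-fold lower (adjusted p = 0.0131), and its lidocaine values were close to each other. Kcnd2, the subunit of dorsal horn neurons and dendrites, was at 6.75, 6.77 and 6.75 in the controls and 6.42, 6.40 and 5.96 after lidocaine. Its 1.41-fold fall (adjusted p = 0.0228) was lost without any 1 of the control rats. Kcnd1 was 1.18-fold lower (adjusted p = 0.0378), and its call was lost under 6 of 11 alternatives.

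The Kcnip genes encode calcium-binding proteins that attach to these A-type pores inside the cell, and all 4 fell. Kcnip1 had the largest fall of the family (log2 change -0.91 ± 0.12, SE, adjusted p = 0.00251). Its log2 values were 6.85, 6.83 and 6.83 in control rats 1 to 3 and 6.07, 6.08 and 5.63 in lidocaine rats 1 to 3. The controls were nearly equal and every lidocaine rat lay well below them, 1.87-fold lower on average. Kcnip4 was at 6.97, 7.01 and 6.91 in the controls and 6.42, 6.49 and 6.12 after lidocaine, 1.54-fold lower (adjusted p = 0.00513). Kcnip3, which is also known as the transcriptional repressor DREAM, was 1.4-fold lower (adjusted p = 0.0131). Kcnip2 was 1.28-fold lower (adjusted p = 0.0183) and did not pass when lidocaine rat 2 was left out. The membrane partners of the same complex, Dpp6 and Dpp10, fell as well, Dpp6 by 1.47-fold (adjusted p = 0.00643) and Dpp10 by 1.63-fold (adjusted p = 0.00884). All 9 measured genes of this complex therefore passed as lower, against 14.0% of all genes and 31.1% of those at or above 5.94.

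Genes of the axonal Kcna complex did not all pass. Kcna1 and Kcna2 encode the pores that lie beside the nodes of myelinated axons, and Kcnab2 a subunit attached to them. Kcna1, the brightest member, was at 9.10, 9.08 and 9.19 in the controls and 9.11, 8.88 and 8.78 after lidocaine, with overlapping groups (log2 change -0.20, 95% interval -0.41 to 0.01, adjusted p = 0.168). It passed as lower after quantile normalization and without lidocaine rat 1. Kcna2 was at 7.98, 8.12 and 8.19 in the controls and 7.82, 7.64 and 7.45 after lidocaine, 1.38-fold lower with no overlap (adjusted p = 0.0168). Kcnab2 was at 7.56, 7.61 and 7.60 in the controls and 7.28, 7.20 and 6.83 after lidocaine, also without overlap and 1.4-fold lower (adjusted p = 0.0191). Neither Kcna2 nor Kcnab2 passed when control rat 2 or 3 was left out. Cntnap2 and Cntn2, the adhesion proteins that hold this complex in place, fell by 1.53-fold (adjusted p = 0.0192) and 1.25-fold (adjusted p = 0.0334). Whether the fall of Kcna2 differed from the change of Kcna1 was not tested. None of the other 6 Kcna genes passed.

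The other beta subunits, relatives of Kcnab2 that bind inside the cell, also fell. Kcnab1 was at 7.78, 7.77 and 7.67 in control rats 1 to 3 and 7.16, 7.13 and 6.64 in lidocaine rats 1 to 3. This was a 1.7-fold fall (log2 change -0.76 ± 0.13, SE, adjusted p = 0.00709). Kcnab3 was at 6.37, 6.43 and 6.38 in the controls and 5.85, 5.80 and 5.43 after lidocaine, 1.63-fold lower (adjusted p = 0.00493). In both, the control rats lay close together and lidocaine rat 3 was lowest.

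Of 8 Kcnh genes 4 fell, 0 rose and 4 did not pass. This subfamily holds the ether-a-go-go channels and their relatives. Kcnh7, of the ERG group that slows repeated firing, was at 5.54, 5.64 and 5.56 in control rats 1 to 3 and 4.94, 4.87 and 4.58 in lidocaine rats 1 to 3. Its 1.72-fold fall (log2 change -0.78 ± 0.099, SE, adjusted p = 0.00219) had the smallest adjusted p of the family. Kcnh2, of the same group, was at 6.33, 6.41 and 6.34 in the controls and 5.96, 5.98 and 5.80 after lidocaine, 1.37-fold lower (adjusted p = 0.00501). Kcnh6, the third ERG gene, was dim at a mean of 3.67 and did not pass (adjusted p = 0.521). Kcnh5 was at 6.18, 6.56 and 6.27 in the controls and 5.87, 5.73 and 5.40 after lidocaine, 1.59-fold lower (adjusted p = 0.0125), and Kcnh8 was 1.3-fold lower (adjusted p = 0.0115). Kcnh1, Kcnh3 and Kcnh4 did not pass. The calls of the 4 Kcnh genes that fell held under every alternative run on them.

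Kcnq3 and Kcnq5 are pores of the M-current that restrains firing. Of the 3 measured Kcnq genes Kcnq5 fell 1.29-fold, with 5.05, 5.13 and 5.19 in the controls and 4.82, 4.71 and 4.72 after lidocaine (adjusted p = 0.00784). Kcnq3 was at 6.35, 6.29 and 6.21 in the controls and 6.18, 6.10 and 5.83 after lidocaine. Its groups did not overlap, but it did not pass (log2 change -0.25, adjusted p = 0.113). Kcnq1, the heart and epithelial form, lay at 3.20 in the mean of the 6 arrays and did not pass (adjusted p = 0.995). Kcnb2, a delayed rectifier, was 1.36-fold lower (adjusted p = 0.0346), and 5 of 11 alternatives ended that call.

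The silent subunits form no channel alone and alter Kcnb pores when they join them. Of 8, 1 fell and 7 did not pass, with a median log2 change of -0.05. The share that fell was 14.0% over all genes and 8.50% over the dimmer genes. The silent subunit that fell was Kcns3, at 5.57, 5.74 and 5.65 in control rats 1 to 3 and 5.06, 5.09 and 4.66 in lidocaine rats 1 to 3. It fell by 1.64-fold (log2 change -0.72 ± 0.12, SE, adjusted p = 0.00601). The other 7 had log2 changes between -0.16 and 0.18. Their mean levels lay between 1.84 for Kcnv2 and 5.19 for Kcng3, all under the 95th percentile of the negative controls, as was Kcns3.

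**Figure D3:**
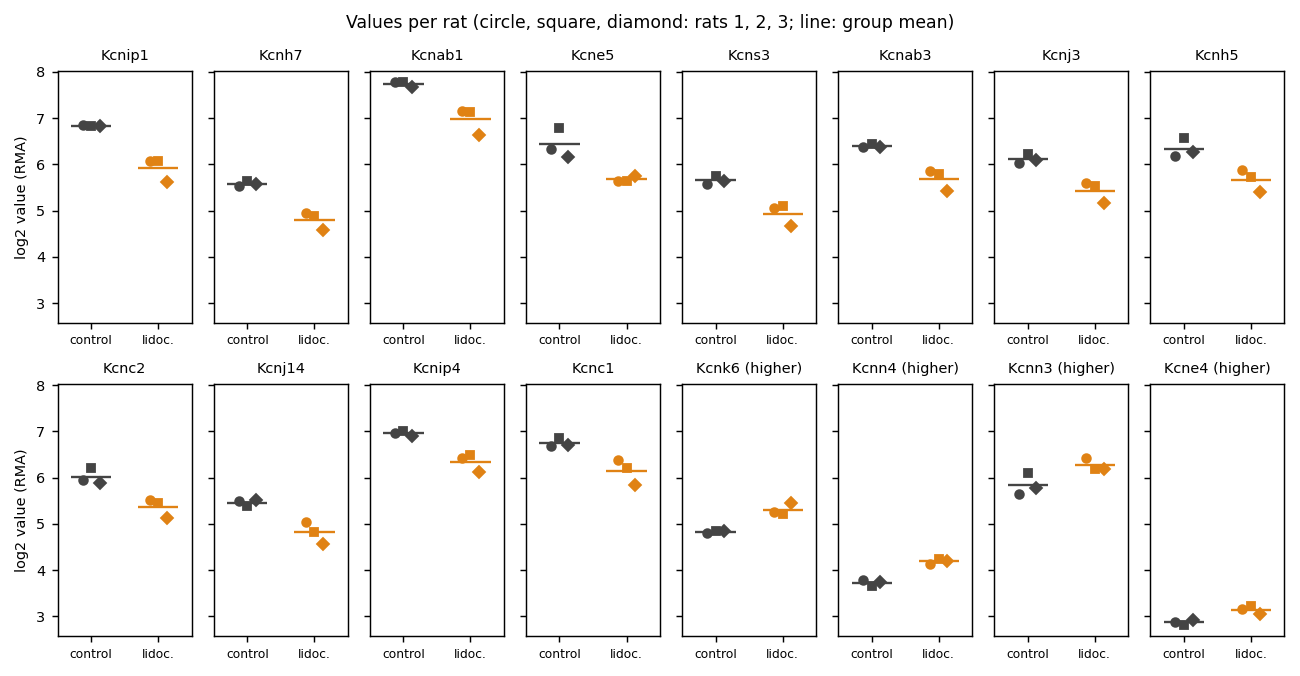
Log2 RMA value of each rat for the 12 members with the largest falls that passed and the 4 that rose. In every panel the lidocaine values lie on one side of the control values, and in the fallen genes other than Kcne5 rat 3 (diamond) is the lowest.

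Among the 16 auxiliary subunits as a group 9 fell, 1 rose and 6 did not pass, with a median log2 change of -0.36. Besides the Kcnip and Kcnab genes described above, Kcne5 and Kcnmb2 fell. Kcne5, a small membrane subunit that restrains Kcnq1 channels, was at 6.34, 6.79 and 6.16 in control rats 1 to 3 and 5.64, 5.63 and 5.76 in lidocaine rats 1 to 3. Its 1.69-fold fall (adjusted p = 0.01) was lost when averaged with the dimmer cluster that carries the name Kcne1l (adjusted p = 0.0505). Kcnmb2, which makes the large calcium-activated channel inactivate, was 1.29-fold lower (adjusted p = 0.0112). Kcne4, another single-pass subunit, was at 2.87, 2.82 and 2.92 in the controls and 3.15, 3.23 and 3.06 after lidocaine and rose 1.21-fold (adjusted p = 0.0232), a call lost under 6 of 11 alternatives. Kcne1, Kcne2 and Kcne3 did not pass and lay between 2.57 and 4.40 in the mean of the 6 arrays. Kcnmb1, the smooth muscle form, and Kcnmb4, the neuronal form, did not pass, the first at a mean of 4.40 in both groups (adjusted p = 0.988) and the second with a log2 change of 0.24 (adjusted p = 0.207).

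Of the 7 pores opened by ions inside the cell, 3 fell, 2 rose and 2 did not pass. Over all genes, 14.0% fell and 9.70% rose. Kcnma1, the pore of the large calcium-activated channel that shortens the action potential, was at 6.75, 6.91 and 6.92 in the controls and 6.62, 6.52 and 6.15 after lidocaine, 1.35-fold lower (adjusted p = 0.0373). The sodium-activated channel gene Kcnt1 was at 6.20, 6.43 and 6.30 in the controls and 6.11, 5.87 and 5.84 after lidocaine, 1.29-fold lower (adjusted p = 0.0269). Its relative Kcnt2 was 1.24-fold lower (adjusted p = 0.0331). Each of the calls of Kcnma1, Kcnt1 and Kcnt2 was lost under 5 alternatives, among them leaving out control rat 2 or 3. Kcnu1, the sperm channel, lay below the median of the negative controls.

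Of the 3 measured Kcnn genes, which encode small and intermediate calcium-activated channels, 2 rose and 1 did not pass. Kcnn4, the intermediate channel of blood and immune cells, was at 3.77, 3.67 and 3.73 in control rats 1 to 3 and 4.13, 4.25 and 4.19 in lidocaine rats 1 to 3. It rose 1.38-fold (log2 change 0.47 ± 0.064, SE, adjusted p = 0.00296) and kept its call under every alternative run on it. Kcnn3, a small-conductance channel of neurons and glia, was at 5.65, 6.11 and 5.77 in the controls and 6.43, 6.18 and 6.18 after lidocaine, 1.34-fold higher (adjusted p = 0.0454). That call was lost under 7 of 12 alternatives, median centring among them. Kcnn1, the neuronal relative, was at 5.06, 4.95 and 5.02 in the controls and 4.88, 4.94 and 4.91 after lidocaine and did not pass (log2 change -0.10, adjusted p = 0.3), although its groups did not overlap.

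Of 14 inward rectifiers 4 fell, 0 rose and 10 did not pass, with a median log2 change of -0.17. Kcnj3 and Kcnj6 encode subunits of the G protein-gated channel through which opioid and GABA-B receptors hyperpolarise neurons. Kcnj3 was at 6.04, 6.23 and 6.09 in control rats 1 to 3 and 5.60, 5.52 and 5.15 in lidocaine rats 1 to 3. It fell by 1.62-fold (log2 change -0.69 ± 0.12, SE, adjusted p = 0.00681). Kcnj6 was at 5.68, 5.96 and 5.78 in the controls and 5.52, 5.38 and 4.97 after lidocaine, 1.43-fold lower (adjusted p = 0.0349). It did not pass when any 1 control rat, or lidocaine rat 2, was left out. Kcnj9, a further subunit of this channel, was at 3.92, 3.82 and 3.90 in the controls and 3.74, 3.81 and 3.52 after lidocaine, without overlap but with adjusted p = 0.157. Kcnj5, the cardiac subunit, did not pass either (log2 change 0.15, adjusted p = 0.477). Kcnj14, an inward rectifier described in motor neurons of rat brainstem, was at 5.50, 5.38 and 5.51 in the controls and 5.05, 4.83 and 4.56 after lidocaine, 1.57-fold lower (adjusted p = 0.00813). Kcnj16, which pairs with other inward rectifiers in astrocytes, was at 6.33, 6.39 and 6.43 in the controls and 6.01, 6.19 and 6.03 after lidocaine. It was 1.24-fold lower (adjusted p = 0.0185), and leaving out control rat 2, control rat 3 or lidocaine rat 1 ended the call. Neither subunit of the channels that close with ATP passed. Kcnj8, of vessel walls, was at 4.41, 4.40 and 4.29 in the controls and 4.39, 4.46 and 4.40 after lidocaine, with overlap (log2 change 0.05, adjusted p = 0.645), and Kcnj11, of neurons, had a log2 change of -0.20 (adjusted p = 0.266).

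The two-pore-domain channels carry background current. Of 13, 3 fell, 1 rose and 9 did not pass, against falls in 14.0% and rises in 9.70% of all genes. The median log2 change of the 13 was 0.04. Kcnk9, an acid-sensitive channel, was the brightest of them and was at 7.64, 7.82 and 7.75 in the controls and 7.47, 7.09 and 6.87 after lidocaine. Its 1.51-fold fall (adjusted p = 0.0209) did not pass when control rat 2, control rat 3 or lidocaine rat 2 was left out. Kcnk10, a channel gated by lipids and stretch, was at 5.25, 5.33 and 5.34 in the controls and 4.97, 4.79 and 4.49 after lidocaine, 1.47-fold lower (adjusted p = 0.0121). Its relative Kcnk4 was 1.34-fold lower (adjusted p = 0.00654), and both calls held under every alternative run on them. Kcnk2, of the same group, was at 5.15, 5.32 and 5.17 in the controls and 5.00, 5.13 and 5.14 after lidocaine and did not pass although the groups did not overlap (log2 change -0.12, 95% interval -0.29 to 0.05, adjusted p = 0.29). Kcnk3, the acid-sensitive relative of Kcnk9, was at 6.41, 6.29 and 6.36 in the controls and 6.29, 6.42 and 6.23 after lidocaine, with overlapping groups (log2 change -0.04, 95% interval -0.20 to 0.13, adjusted p = 0.78). Kcnk18, a channel of sensory ganglia, was at 3.76, 3.38 and 3.45 in the controls and 3.66, 3.48 and 3.56 after lidocaine, also with overlap (adjusted p = 0.844). Kcnk6 was the member that rose most, at 4.81, 4.84 and 4.85 in control rats 1 to 3 and 5.26, 5.21 and 5.44 in lidocaine rats 1 to 3. It was 1.39-fold higher (log2 change 0.47 ± 0.075, SE, adjusted p = 0.00491), and its call held under every alternative run on it. A dimmer cluster of Kcnk6 had a log2 change of 0.24.

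Potassium channel genes known from microglia and macrophages were listed separately. Of 5, Kcnn4 and Kcnk6 rose and Kcnk13, Kcna3 and Kcnj2 did not pass. Kcnk13, the background channel of resting microglia, was at 3.84, 3.78 and 3.73 in the controls and 3.87, 3.94 and 4.00 after lidocaine, with no overlap but adjusted p = 0.129. Kcna3, a channel of activated T cells and microglia, was at 5.21, 5.87 and 5.34 in the controls and 5.69, 5.40 and 5.41 after lidocaine, with overlapping groups (log2 change 0.02, 95% interval -0.36 to 0.41). Kcnj2 was at 4.29, 4.64 and 4.42 in the controls and 4.29, 4.15 and 4.48 after lidocaine, also with overlap (adjusted p = 0.426). Of 13 general markers of microglia and macrophages, 12 rose and 1 did not pass, against rises in 9.70% of all genes. The median log2 change of these markers was 1.81. Their mean log2 level was 5.22 to 5.28 in the control rats and 6.85 to 7.00 in the lidocaine rats. All 8 reactive astrocyte markers and all 4 neutrophil markers rose too, with median log2 changes of 1.95 and 1.80. The part of these cells in the rises of Kcnn4 and Kcnk6 was not tested.

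Markers of neurons, whose mean level lay above the 95th percentile of the negative controls in every rat, moved with the falls. Of 11 measured, 9 fell and 2 did not pass, with a median log2 change of -0.47 over all 11. The median over all 84 potassium channel members was -0.15, but 61 of these were dimmer than that percentile. The medians thus come from unlike signal levels, and that of the 23 brighter members is given below, with dim genes left out. Beside this and the next marker counts, 14.0% of all genes fell, and 31.1% of those at or above that percentile. The mean log2 level of the neuron markers was 8.81 to 8.88 in the control rats and 8.18 to 8.54 in the lidocaine rats. Motor neuron markers fell in 3 of 6 cases, with mean levels of 5.87 to 5.90 and 5.41 to 5.66 in control and lidocaine rats. Of 6 astrocyte markers 4 fell and 2 did not pass, at 7.89 to 8.01 in the control rats and 7.38 to 7.66 in the lidocaine rats. Of 6 oligodendrocyte markers 4 fell and 2 did not pass, at 8.75 to 8.88 and 8.24 to 8.45. None of the 5 endothelial markers passed. The part of these cell types in the falls of the potassium channel genes was not tested. Of the 4 sensory neuron markers, which could mark attached roots, none passed, and Scn10a lay at 2.91 in the controls, near the median of the negative controls at 2.71. Avil was at 4.20, 3.94 and 4.18 in the controls and 4.27, 4.46 and 4.73 after lidocaine, without overlap (adjusted p = 0.0652). Of 3 Schwann cell markers Ngfr rose 2.82-fold (adjusted p = 0.0431), against rises in 9.70% of all genes, and Pmp22 and Prx did not pass. Whether root content differed between the groups was not tested.

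The lidocaine rats lay at different distances from the controls. Over the 33 members that fell, the median deviation from the control mean was -0.37 in rat 1, -0.47 in rat 2 and -0.70 in rat 3. Lidocaine rat 3 was the lowest of the 3 in 27 of these members (81.8%), and in 71.4% of all 2875 genes that fell. The rats had the same order over all 2875 genes that fell, at -0.33, -0.36 and -0.47. It was also found in the markers of neurons (-0.34, -0.40 and -0.67), motor neurons (-0.28, -0.35 and -0.45) and oligodendrocytes (-0.36, -0.51 and -0.53). In the astrocyte markers rat 3 was again the lowest, and rat 2 (-0.38) lay above rat 1 (-0.42). Rat 3 was instead the highest in the markers of meningeal fibroblasts (-0.41, -0.14 and 0.70) and Schwann cells (-0.26, -0.31 and 0.32). It was also the highest in those of pericytes and smooth muscle (0.03, -0.43 and 0.17) and sensory neurons (-0.03, 0.04 and 0.25). The same held, by less, for endothelium and oligodendrocyte precursors. The part of tissue content in the order of the rats was not tested. Over the 33 members the median SD was 0.09 among control rats and 0.19 among lidocaine rats. Without lidocaine rat 3, 29 of the 33 members still passed as lower.

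**Figure D4:**
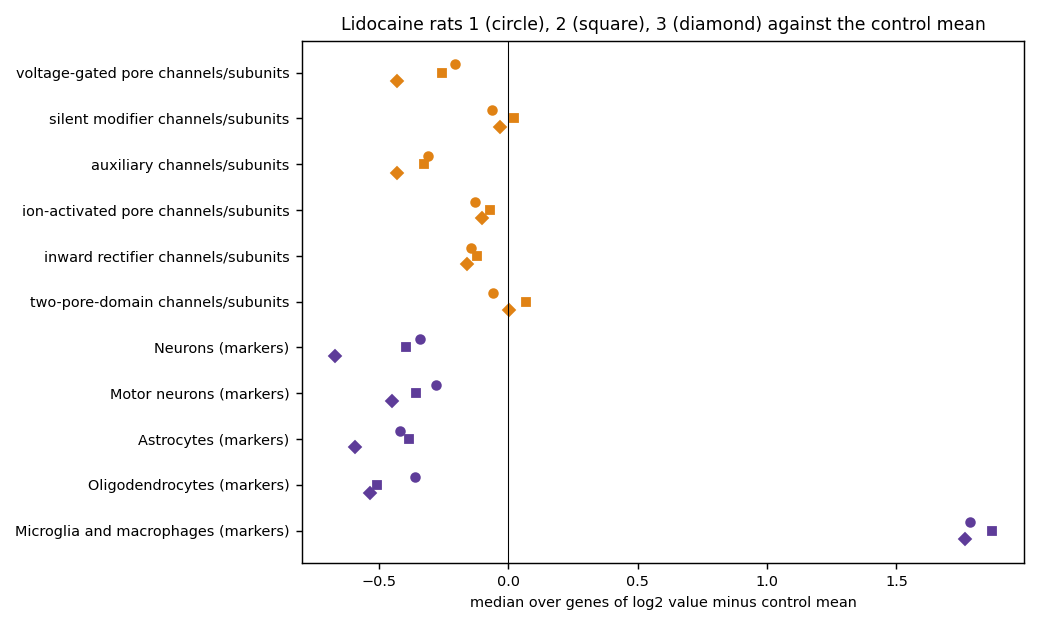
Median over genes of the log2 value minus the control mean in each lidocaine rat, for the members by role (orange) and for cell type markers (purple). In the voltage-gated pore and auxiliary groups and in the neuron markers rat 3 lies furthest below the control mean, and the microglia and macrophage markers lie near 1.8 above it.

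Proteins that bind, anchor or regulate potassium channels were counted from a list of such genes. Of 25 measured genes, 12 fell, 0 rose and 13 did not pass, with a median log2 change of -0.26. The share that fell was 14.0% over all genes and 31.1% over genes at or above 5.94. Besides the Dpp and contactin partners named above, Lgi1, a secreted protein bound to axonal Kcna channels, fell by 1.62-fold (log2 change -0.69 ± 0.099, SE, adjusted p = 0.0034), and its receptor Adam22 by 1.38-fold. Rgs7 and Gnb5, which form the complex that speeds closure of G protein-gated inward rectifiers, fell by 1.5-fold (adjusted p = 0.00787) and 1.46-fold (adjusted p = 0.0112). The scaffolds Dlg2 and Dlg4 were 1.39-fold and 1.29-fold lower, and Abcc8, the sulfonylurea receptor of neuronal ATP-sensitive channels, 1.21-fold lower. Pex5l, better known as a partner of pacemaker channels, was 1.55-fold lower (adjusted p = 0.0025). Abcc9, the vascular sulfonylurea receptor, did not pass (adjusted p = 0.946), nor did Amigo1, a partner of Kcnb channels (adjusted p = 0.134). With the 3 pump and cotransporter genes that fell, 15 of 32 genes of both lists passed, and 7 did so without control rat 2 or without control rat 3. Over all 20529 genes, 4867 passed in either direction (23.7%), 2754 without control rat 2 and 2906 without control rat 3.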

How the data were processed

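RNA of lumbar cord was labelled with biotin from 150 ng and hybridised to Affymetrix rat arrays, per the labels' protocols. The deposited values are log2 values per transcript cluster after RMA by the authors, per the submitters' processing notes. RMA corrects background, equalises the distributions of probe values and summarises probes, so changes are relative to the rest of each array, and folds of dim genes can be understated. The genome build was not given in the sources used here. Of 63789 clusters, 21560 named 1 gene, and the brightest of each gene over all 6 arrays was kept. All 84 members matched the RefSeq table of GRCr8, used only for names and promoters.

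Groups and rat numbers were read from titles, and no batch is labelled. All 20529 genes were fitted with limma 3.58.1 under R 4.3.3, by lmFit with eBayes, no block and Benjamini-Hochberg adjustment. Adjusted p, standard errors and 95% intervals are limma's. Folds are 2 to the power of the log2 difference. The script was tested on simulated data. Alternatives were median centring, quantile normalization, leaving out dim genes, averaging clusters, trend and robust variance, the replicate block and leaving out each rat. Values per rat were given for the 12 largest falls and all 4 rises that passed, the brightest members and a list of prior interest, and other members by value or count. Members and lists were chosen with earlier results of these data known. The number of arrays limits the precision, and p-values measure the spread between these rats.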

Additional observations from a re-analysis of the deposited data

How the results depend on the processing

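All 37 calls kept their direction under the alternatives run on them, and 20 of them, 18 lower and 2 higher, passed under every one. The members called lower were 34 after median centring (40.5%, against 18.2% of all genes in that fit) and 34 after quantile normalization (40.5% against 15.3%). They were 32 with the clusters of a gene averaged (38.1% against 13.8%) and 29 with the replicate block (34.5%, against 2268 of the 20529 genes). As each rat was left out they ran from 20 to 31, or 23.8% to 36.9%, while all genes ran from 6.54% to 11.8%. With dim genes left out, 23 members remained, of which 18 fell (78.3%, against 37.1% of the genes tested) and 1 rose. The members called higher were 4, or 3 after median centring and 2 with the replicate block, and ran from 2 to 4 as each rat was left out. Among all 20529 genes the rises were 1992, or 1682 after median centring and 1737 with the replicate block. They ran from 1299 to 1918 as each rat was left out. The median log2 change of the members was -0.20 after median centring and -0.49 with dim genes left out, where fewer members were tested. Median centring also lowered the share of rises among all called genes from 40.9% to 31.1%, and the median change of all genes from -0.01 to -0.06. Leaving out dim genes moved the median of all genes tested to -0.13 and the share of rises to 27.5%. The count over both partner lists was 7 to 15 as each rat was left out, while calls over all 20529 genes ran from 2754 to 4348. The labels do not say that the numbers pair rats, so they were not taken as pairs. Deviations of same-numbered rats had correlations of -0.17, -0.09 and 0.14, and those of differently numbered rats ran from -0.30 to 0.34. With 3 rats per group these values cannot decide whether rats were paired. The rises of Kcnk6 and Kcnn4 passed under the 11 alternatives run on them. Both were too dim to be tested with dim genes left out. The rise of Kcnn3 did not pass under 7 of 12 alternatives and that of Kcne4 under 6 of 11.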

Other observations

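Genes that move potassium by other means were also measured. Of 7 measured pump and cotransporter genes, 3 fell, 0 rose and 4 did not pass. The share that fell was 14.0% over all genes and 31.1% over genes at or above 5.94. Slc12a5, the neuronal chloride exporter that couples chloride to potassium, fell from 7.44 ± 0.061 to 6.92 ± 0.24 (log2, SD, n = 3 per group), 1.43-fold lower with adjusted p = 0.0159 in limma's fit. The sodium pump subunits Atp1b1 and Atp1b2 were 1.31-fold and 1.19-fold lower (limma, adjusted p = 0.0177 and 0.0365). Slc12a2, the importer of the same family, had a log2 change of -0.20 and did not pass (limma, adjusted p = 0.0909). Neither Atp1b3 (log2 change 0.11, limma adjusted p = 0.302) nor Slc12a7 (log2 change 0.17, limma adjusted p = 0.38) passed. The catalytic subunits of the sodium pump were not analysed here.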
